A study of Populus trichocarpa with 9 samples.

Results

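A stretch of neighbouring genes on chromosome 4 of Populus trichocarpa was described in xylem cells that overproduced PtrHSFB3-1 or PtrMYB092. Its members were all genes of the table with IDs from Potri.004G005000 to Potri.004G012000, which are 71 of 41335 genes, in steps of 100 with no ID missing. The range was set from the values of the PtrHSFB3-1 and GFP libraries, so PtrHSFB3-1 against GFP is described here with no test. Inside it, 17 consecutive IDs from Potri.004G008000 to Potri.004G009600 held 16 genes that were raised in all 3 PtrHSFB3-1 libraries, and 7 of these 16 were listed at 0 in all 3 GFP libraries. In the PtrMYB092 libraries, 15 of the same 16 genes stayed between 0 and 10, and the exception was the last of the run, Potri.004G009600.

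The cells were SDX protoplasts, wall-less cells of the stem-differentiating xylem, from trees of the genotype Nisqually-1 grown for 6 months in a greenhouse. Protoplasts were transfected with a plasmid for PtrHSFB3-1, for PtrMYB092 or, as the control, for GFP alone, and were collected after 12 h. Each construct had 3 libraries, which the study calls biological replicates, and the plasmids of both TFs also carried GFP. Untransfected cells were not analysed here. The TFs were expressed from the viral 35S promoter, which is active in most plant cells, so the levels reached were those of forced overproduction. What share of the protoplasts took up a plasmid is not stated. In such a bulk sample, a change in few cells and a smaller change in many cells cannot be told apart.

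HSFs, the heat shock factors, are TFs that bind heat shock elements in promoters. Plants hold several classes of them, and class B members, to which PtrHSFB3-1 belongs by name, lack the activation motif of class A and are best known from Arabidopsis as repressors. MYB TFs form one of the largest TF families of plants, and many of them control lignin and secondary wall genes in wood. Neighbouring genes of a plant chromosome are often copies of each other that arose by tandem duplication. Reads of such copies can fit several of them, and how shared reads were handled is not given in the sources used here. None of the gene IDs matched the annotation used here, so the 71 genes are given by ID, without names, functions, sequences or positions, and whether they are copies was not tested.

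The deposited values are whole numbers with column totals of 428358 to 495579. They are labelled as raw counts, but low values differed between libraries by less than random draws of reads would, and they were treated as scores of unknown scale. How many reads stand behind a value is therefore not known, and a gene without a value is given as listed at 0. PtrHSFB3-1 (Potri.006G049200) was at 19859, 31149 and 42965 in its own 3 libraries, at 119, 105 and 165 in the PtrMYB092 libraries and at 53 to 67 in the GFP libraries. PtrMYB092 (Potri.001G118800) was at 6922, 11036 and 17727 in its own libraries, at 4 to 6 in the PtrHSFB3-1 libraries and at 4 to 5 in the GFP libraries. Both TFs were thus high in the libraries titled for them, although the description label of PtrMYB092 replicates 2 and 3 names the other TF. Of 22 monolignol genes, which make lignin precursors, 20 to 22 were above 0 in every library, with sums of 1980 to 4776 in PtrHSFB3-1, 8719 to 12808 in PtrMYB092 and 537 to 1456 in GFP libraries. The 5 secondary wall cellulose synthase genes, which mark xylem cells laying down their wall, summed to only 1 to 7 in any library. No markers of other cell types were given in the sources used here.

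Of the 71 genes, 16 were listed at 0 in all 9 libraries and 55 were above 0 in at least 1. A gene was counted as raised by a TF where its 3 libraries all lay above the 3 GFP libraries and the mean difference of log2(scaled value + 1) was over 1, and as lowered where they all lay below and it was under -1. Scaled values are deposited values corrected for the size of each library. By this count PtrHSFB3-1 raised 20 of the 55 genes (36.4%) and lowered 0, where 5.87% of all 27542 genes above 0 were raised and 0.661% lowered. The range was chosen on this contrast, and nothing is read from the difference between these shares. PtrMYB092 raised 5 of the 55 genes (9.09%) and lowered 1 (1.82%), where 4.44% of all genes above 0 were raised and 0.272% lowered. Only Potri.004G009600 was raised by both TFs, and the comparisons of both share the GFP libraries.

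**Figure D1:**
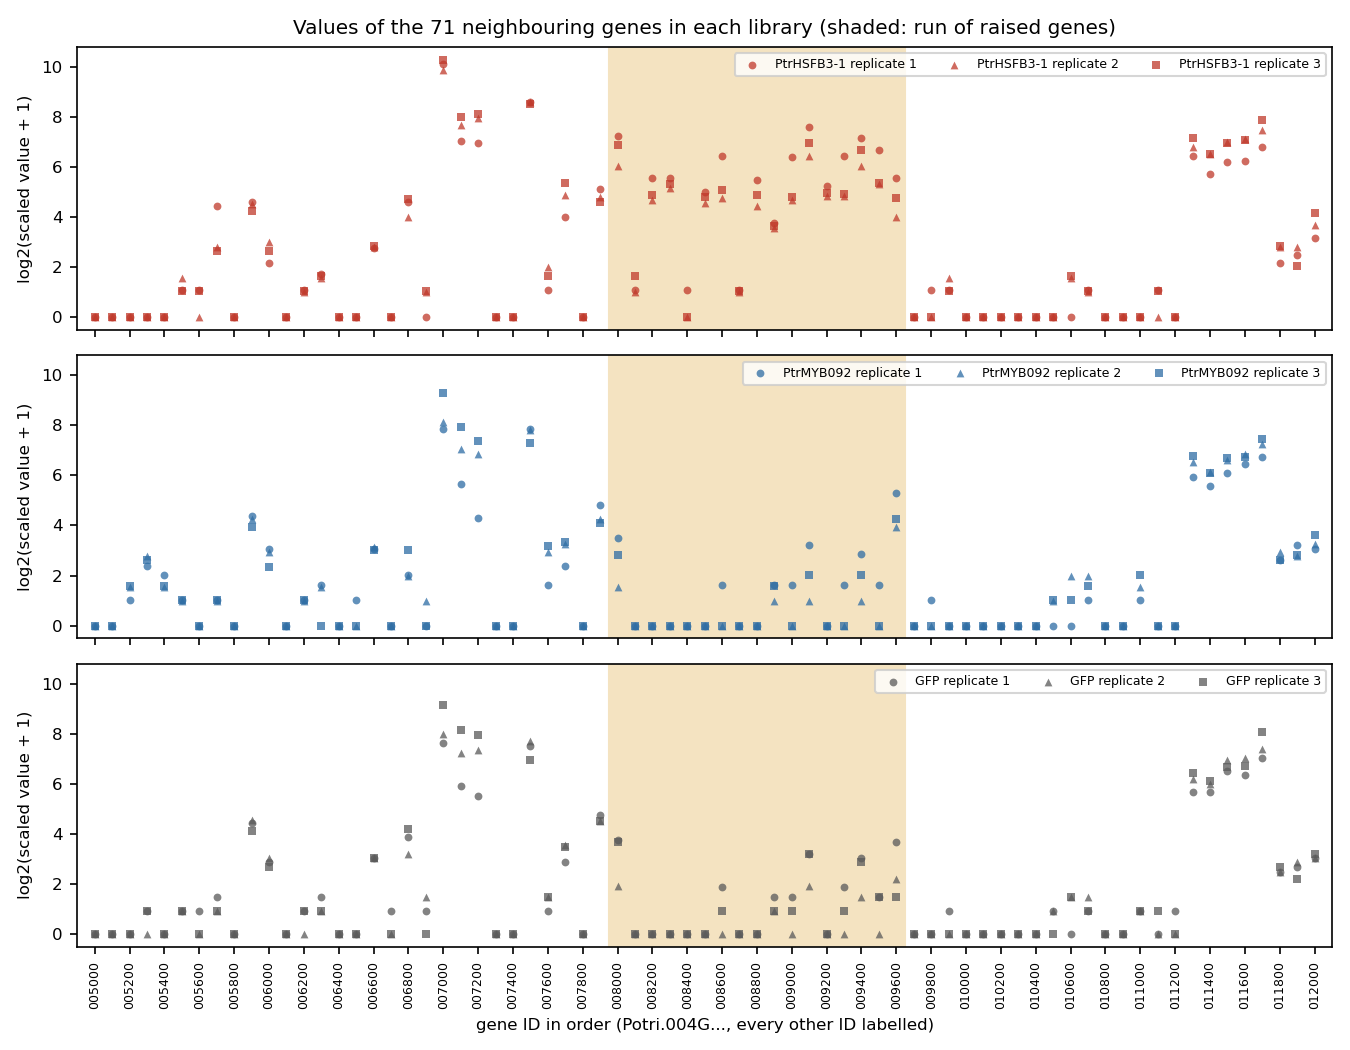
The log2(scaled value + 1) of each of the 71 genes (y axis) in the order of their IDs (x axis), in the 3 libraries of PtrHSFB3-1 (top), PtrMYB092 (middle) and GFP (bottom). Shading marks the run from Potri.004G008000 to Potri.004G009600, where the PtrHSFB3-1 points stand high and most PtrMYB092 and GFP points lie at or near 0; 8 of the 17 genes are at 0 in all GFP libraries.

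The run was read as the longest series of raised IDs with at most 1 ID between them that was not raised. It began at Potri.004G008000 and ended at Potri.004G009600, with 30 members before it and 24 after it. The ID that was not raised was Potri.004G008400, with 1, 0 and 0 in the PtrHSFB3-1 libraries and 0 in every PtrMYB092 and GFP library. The deposited values of the 17 genes summed to 957, 496 and 634 in the PtrHSFB3-1 libraries, against 56, 13 and 37 in the GFP libraries. They made up 0.193%, 0.109% and 0.134% of the column total in PtrHSFB3-1 libraries, and 0.0121%, 0.00302% and 0.00774% in GFP libraries. Between libraries of the same replicate number, the scaled sum was 21.8, 41.9 and 19.7 times as high in PtrHSFB3-1 as in GFP libraries. Every PtrHSFB3-1 library thus stood far above every GFP library, and the ratio was highest in replicate 2, where the GFP sum was lowest. The 3 PtrHSFB3-1 libraries differed among themselves as well. The scaled sum was highest in replicate 1, at 1103, which had the lowest value of the PtrHSFB3-1 gene and the highest monolignol sum of the 3, and it was 494.5 in replicate 2 and 663.6 in replicate 3. The part of the transgene level or of the replicate number in these differences was not tested.

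The raised genes of the run fell into sets that followed the same course over the libraries. The sets were drawn after their values had been seen and are a description. In the first, 5 genes were listed at 0 in all PtrMYB092 and GFP libraries and at 21 to 40 in the PtrHSFB3-1 libraries. Potri.004G008200 was at 40, 25 and 27 in PtrHSFB3-1 libraries. Potri.004G008300 was at 40, 35 and 37, and Potri.004G008500 at 27, 23 and 26. These are genes listed at 0 wherever PtrHSFB3-1 was not overproduced. Gene lengths are not given, so close values of different genes need not be equal levels. Potri.004G008800 was at 38, 21 and 27 in PtrHSFB3-1 libraries, and Potri.004G009200 at 32, 28 and 29. The difference from GFP was 4.80 to 5.35 on the log2(scaled value + 1) scale for the 5 genes. Since each GFP value is 0, the size of this difference depends on the 1 added before the logarithm, and no fold is given.

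The second set held 4 genes that were listed at 0 to 3 outside the PtrHSFB3-1 libraries. Potri.004G008600 was at 74, 26 and 31 in PtrHSFB3-1 libraries, 2, 0 and 0 in PtrMYB092 libraries and 3, 0 and 1 in GFP libraries. Potri.004G009000 was at 72, 25 and 26 in PtrHSFB3-1 libraries, 2, 0 and 0 in PtrMYB092 libraries and 2, 0 and 1 in GFP libraries. Potri.004G009300 was at 74, 28 and 28 in PtrHSFB3-1 libraries, 2, 0 and 0 in PtrMYB092 libraries and 3, 0 and 1 in GFP libraries. Within each of the 9 libraries, these genes had nearly the same value as each other. Potri.004G009500 took the same course, with 87, 39 and 38 in PtrHSFB3-1 libraries, 2, 0 and 0 in PtrMYB092 libraries and 2, 0 and 2 in GFP libraries. In all 4 genes, PtrHSFB3-1 replicate 1 stood apart from replicates 2 and 3, and its scaled value was 2.58 to 3.33 times that of the lowest of the 3. In PtrMYB092 cells replicate 1 was the only library above 0. In GFP cells replicate 2 was at 0 for all 4.

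The third set held 3 genes that were above 0 in every library and at 66 or more in every PtrHSFB3-1 library. Potri.004G008000, the first gene of the run, was at 129, 66 and 112 in PtrHSFB3-1 libraries, 10, 2 and 6 in PtrMYB092 libraries and 14, 3 and 13 in GFP libraries. Potri.004G009100 was at 167, 86 and 117 in PtrHSFB3-1 libraries, 8, 1 and 3 in PtrMYB092 libraries and 9, 3 and 9 in GFP libraries. Potri.004G009400 was at 123, 66 and 97 in PtrHSFB3-1 libraries, 6, 1 and 3 in PtrMYB092 libraries and 8, 2 and 7 in GFP libraries. Replicate 2 was the lowest library of each construct in all 3 genes. Within replicate numbers, the scaled value in PtrHSFB3-1 libraries was 11.8, 24.1 and 9.92 times that in GFP libraries for Potri.004G008000. It was 23.7, 31.4 and 14.96 times as high for Potri.004G009100 and 19.6, 36.2 and 16.0 times as high for Potri.004G009400. The means of scaled values for Potri.004G009100 were 134 ± 54.2 in PtrHSFB3-1 and 6.35 ± 3.13 in GFP libraries (SD, n = 3 each). The highest PtrHSFB3-1 library exceeded the lowest by 2.15 to 2.26 times in this set, against 1.32 to 2.09 times in the set listed at 0 elsewhere.

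**Figure D2:**
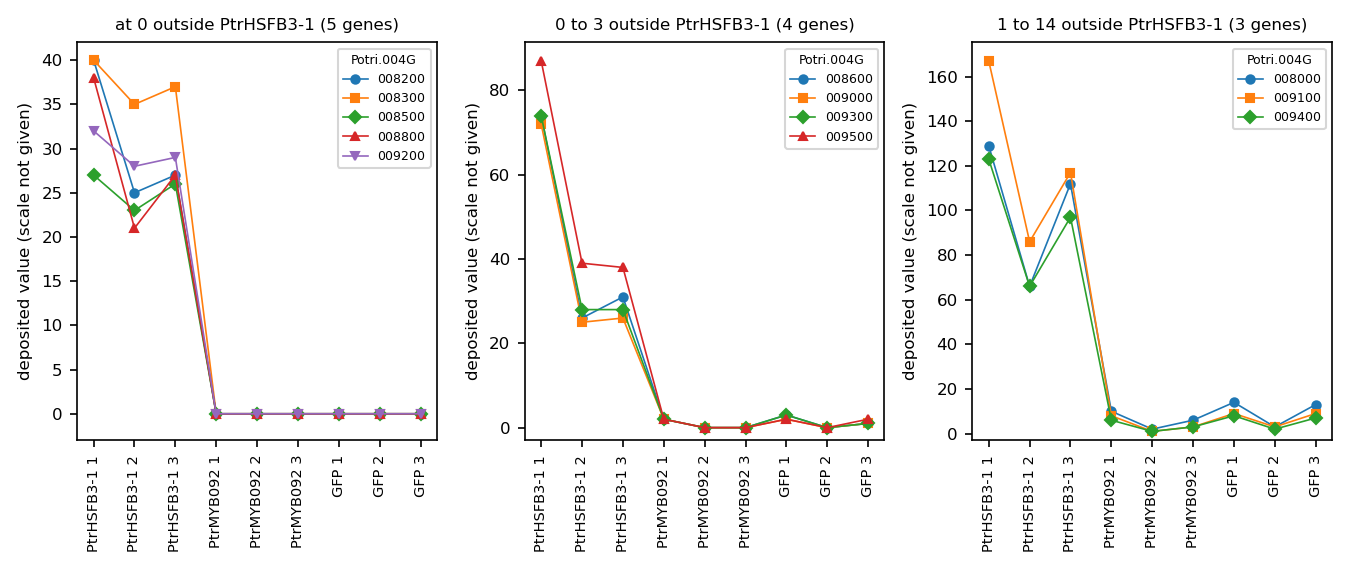
Deposited value (y axis, scale not given) in each of the 9 libraries (x axis) for the 3 sets of genes in the run, each line joining the values of 1 gene with no order meant between libraries. The left set (5 genes) is at 21 to 40 in PtrHSFB3-1 libraries and at 0 in all others, the middle set (4 genes) is highest in PtrHSFB3-1 replicate 1, at 72 to 87, and the right set (3 genes) is at 66 to 167 in PtrHSFB3-1 libraries and above 0 everywhere.

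The other 4 raised genes of the run fitted none of these sets. Potri.004G008900 was at 11, 11 and 11 in PtrHSFB3-1 libraries, 2, 1 and 2 in PtrMYB092 libraries and 2, 1 and 1 in GFP libraries and did not differ between the 3 PtrHSFB3-1 libraries before scaling. Its scaled value in PtrHSFB3-1 libraries was 7.02, 12.1 and 12.7 times that in the GFP library of the same number. Potri.004G008100 was at 1, 1 and 2 in PtrHSFB3-1 libraries and 0 in all others. Potri.004G008700 was at 1, 1 and 1 in PtrHSFB3-1 libraries and 0 in all others. These last 2 genes were barely above 0, and both fell below the limit for raised genes when 5 in place of 1 was added before the logarithm, which leaves 14 raised genes in the run. Potri.004G009600, at the far end of the run, was at 40, 15 and 25 in PtrHSFB3-1 libraries, 37, 15 and 18 in PtrMYB092 libraries and 13, 4 and 2 in GFP libraries. Of the 16 raised genes of the run, it was the only one that PtrMYB092 raised as well.

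Past both ends of the run the values of PtrHSFB3-1 and GFP libraries came together within 1 or 2 IDs. Further before it some genes were raised again, the nearest being Potri.004G007700. Directly before the run, Potri.004G007900 was at 29, 27 and 22 in PtrHSFB3-1 libraries, 26, 19 and 16 in PtrMYB092 libraries and 29, 24 and 24 in GFP libraries. Its groups overlapped. The ID before that, Potri.004G007800, was listed at 0 in all 9 libraries. Just after the run, Potri.004G009700 was listed at 0 throughout and Potri.004G009800 at 1, 0 and 0 in PtrHSFB3-1, 1, 0 and 0 in PtrMYB092 and 0 in all GFP libraries. The run was thus followed by genes at or near 0. From Potri.004G009700 to Potri.004G011200, 8 of 16 genes were at 0 in all libraries and no value was above 3. From Potri.004G011300 to Potri.004G012000, all 8 genes were above 0 in every library, at 3 to 297, and differed from GFP by -0.15 to 0.71 on the log2(scaled value + 1) scale with PtrHSFB3-1. Expressed genes that were not raised therefore lay beyond those near 0.

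**Figure D3:**
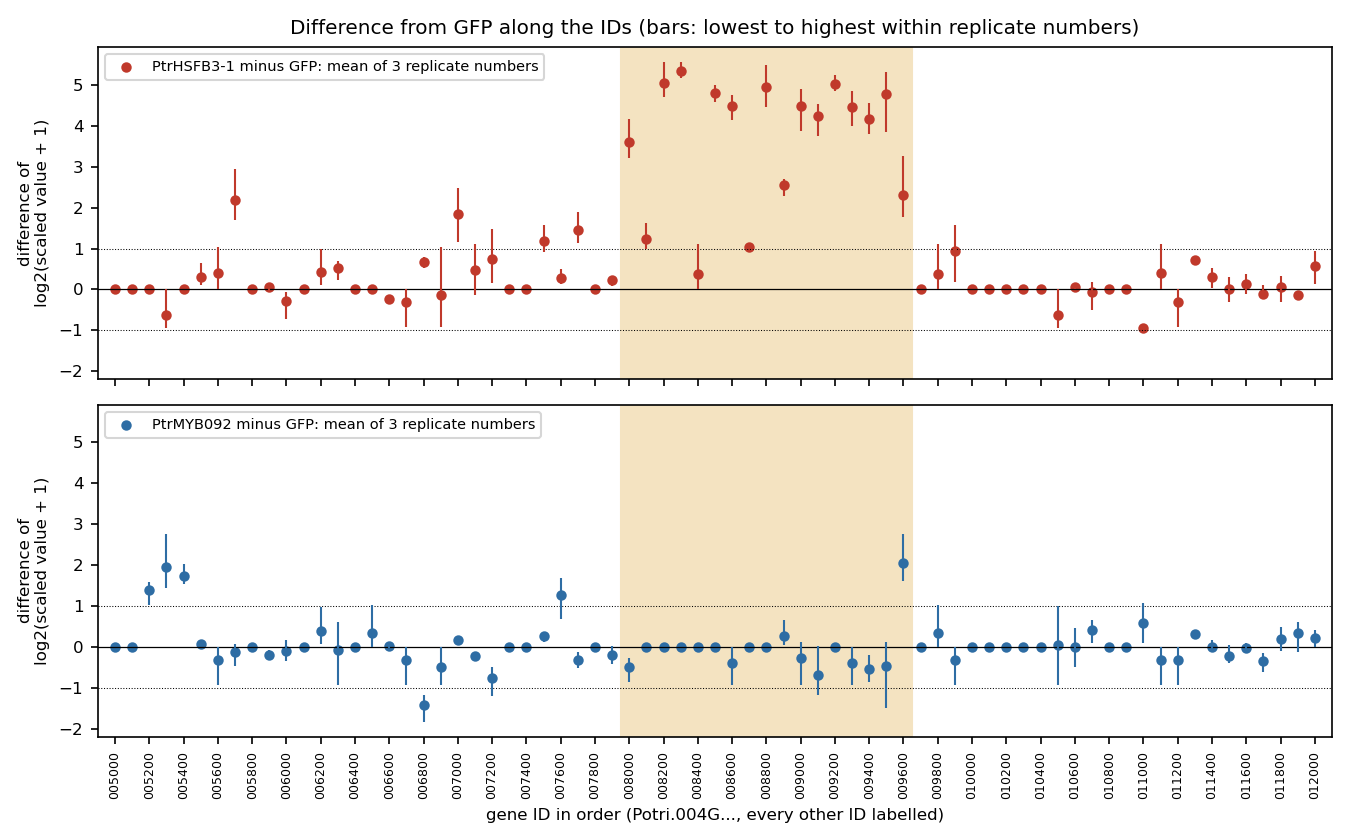
Difference from GFP of log2(scaled value + 1) (y axis) for the 71 genes in the order of their IDs (x axis), for PtrHSFB3-1 (top) and PtrMYB092 (bottom). Points are means over the 3 replicate numbers, bars run from the lowest to the highest of the 3, dotted lines mark 1 and -1, and shading marks the run; under PtrHSFB3-1 the 5 genes at 0 elsewhere reach 4.80 to 5.35, and under PtrMYB092 only Potri.004G009600 in the run passes 1.

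Outside the run, 38 of 54 genes were above 0 and PtrHSFB3-1 raised 4 of them, all before its start. Of all 27542 genes above 0 it raised 5.87%, and nothing is read from the count of 4. Potri.004G005700 was at 18, 6 and 5 in PtrHSFB3-1 libraries, 1, 1 and 1 in PtrMYB092 libraries and 2, 1 and 1 in GFP libraries. As in the second set, replicate 1 was the highest PtrHSFB3-1 library. Potri.004G007000 was at 955, 936 and 1189 in PtrHSFB3-1 libraries, 221, 294 and 612 in PtrMYB092 libraries and 218, 276 and 616 in GFP libraries. The scaled value of this gene in PtrHSFB3-1 libraries was 5.59, 3.72 and 2.22 times that in the GFP library of the same number, and GFP replicate 3 was far above the other GFP libraries. Potri.004G007500 was at 337, 393 and 352 in PtrHSFB3-1 libraries, 223, 234 and 153 in PtrMYB092 libraries and 201, 228 and 136 in GFP libraries. Potri.004G007700 was at 13, 29 and 38 in PtrHSFB3-1 libraries, 4, 9 and 9 in PtrMYB092 libraries and 7, 12 and 11 in GFP libraries. Apart from Potri.004G005700 and Potri.004G007700, these genes were at 136 or more in every GFP library. The differences of the 4 genes, at 1.19 to 2.18, were smaller than the 3.61 to 5.35 of the 3 sets in the run. They overlapped the 1.05 to 2.55 of the raised genes of the run that fitted none of the sets. When libraries were scaled by their column totals alone, which moved the median of all tested genes to -0.25 for PtrHSFB3-1, against 0.01 otherwise, Potri.004G007500 and Potri.004G007700 were no longer counted as raised. The difference was then 0.91 for Potri.004G007500, under the limit. For Potri.004G007700 it was 1.19, over the limit, but a PtrHSFB3-1 library overlapped the GFP libraries. Between the raised genes, Potri.004G007100 was at 112, 207 and 243 in PtrHSFB3-1 libraries, 48, 136 and 241 in PtrMYB092 libraries and 66, 163 and 310 in GFP libraries, with overlapping groups.

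Few members lay next to the limits of 1 and -1. Just inside the upper limit were Potri.004G008700, at 1.05, Potri.004G007500, at 1.19, and Potri.004G008100, at 1.24. Just outside were Potri.004G009900, at 0.93, Potri.004G007200, at 0.74, and Potri.004G011300, at 0.71. Next to the lower limit was Potri.004G011000, at -0.93, with 0 in all PtrHSFB3-1 libraries, 1, 2 and 3 in PtrMYB092 libraries and 1, 1 and 1 in GFP libraries. It counted as lowered, at -1.49, when 0.5 in place of 1 was added before the logarithm. Potri.004G009900 had only 1, 2 and 1 in PtrHSFB3-1 libraries and 1, 0 and 0 in GFP libraries. It counted as raised, at 1.395, with 0.5 added, and also without GFP replicate 1, PtrHSFB3-1 replicate 1 or PtrHSFB3-1 replicate 3. Potri.004G007200 counted as raised, at 1.089, without PtrHSFB3-1 replicate 1. Without GFP replicate 3, Potri.004G007500 was at 0.985 and no longer counted as raised. At the limits of the ID range, Potri.004G005000 was listed at 0 in every library and Potri.004G012000 was at 7, 12 and 16 in PtrHSFB3-1 libraries and 8, 8 and 9 in GFP libraries. The neighbours left outside the range, Potri.004G004900 and Potri.004G012100, differed from GFP by -0.24 and -0.04 with PtrHSFB3-1.

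Runs of raised genes with consecutive IDs were counted over all chromosomes and scaffolds with the same rule, as a description. With PtrHSFB3-1, the genes from Potri.004G008500 to Potri.004G009600 made a run of 12, the longest in the table. The next was a run of 11 on chromosome 13, followed by 1 run of 6, 4 of 5 and 8 of 4. Among the runs of 4 was Potri.004G008000 to Potri.004G008300, the front of this same stretch. Among the runs of 5 was Potri.T095500 to Potri.T095900, which lies on scaffolds. With PtrMYB092 the longest were 2 runs of 4. Of the raised genes, most stood alone, in 1211 runs of 1 gene with PtrHSFB3-1 and 1014 with PtrMYB092. Long runs under PtrHSFB3-1 were therefore few, and the stretch on chromosome 4 was not the only one.

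**Figure D4:**
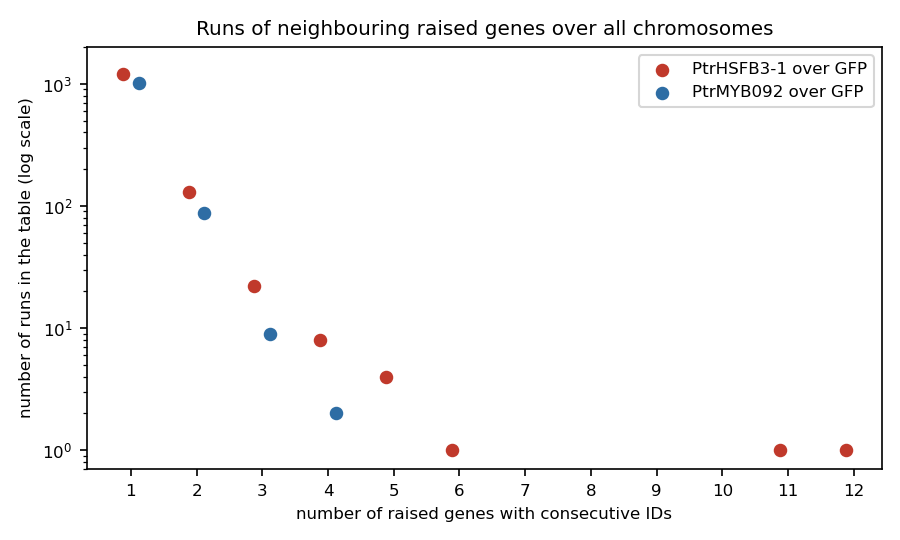
Number of runs in the whole table (y axis, log scale) by the number of raised genes with consecutive IDs in them (x axis), for PtrHSFB3-1 and PtrMYB092. PtrHSFB3-1 has 1 run of 12, which lies in the stretch on chromosome 4, and 1 of 11 on chromosome 13, while PtrMYB092 has none above 4.

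The comparison of PtrMYB092 with GFP asked whether the other TF moves the same neighbours. PtrHSFB3-1 itself was higher in PtrMYB092 libraries, at 105 to 165, than in GFP libraries, at 53 to 67, and the part of this in the values of the members was not tested. The comparison was tested, since the range was not drawn from the PtrMYB092 libraries. It was drawn in part from the GFP libraries, which serve as the control here too, so the test is not independent of the choice of members. Of the 71 genes, 28 passed the filter on low values and entered a limma fit over all 9 libraries. Of these, 13 passed without the PtrHSFB3-1 libraries. The other 15 passed only with them, among them 12 genes of the run, and 5 of these were at 0 in every PtrMYB092 and GFP library and could not be called. With thresholds of 0.05 on the adjusted p and of 2 or 0.8 on the fold change, limma called 0 of the 13 higher and 0 lower, and likewise none of the 15, where it called 4.60% of all 7653 genes tested higher and 0.366% lower. With so few genes able to pass, nothing is read from these counts about the stretch as a whole. Before adjustment, a limma p under 0.05 was reached by 1 of the 13, Potri.004G009600, which was higher, and by 1 of the 15, Potri.004G006800, which was lower. Over all genes tested, 12.0% reached it on the higher side and 4.77% on the lower. The replicate numbers paired the libraries, and with the number as a block limma called both of these genes and no other of the 28, where it called 6.05% of all genes tested higher and 7.77% lower.

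Potri.004G009600 was higher in each PtrMYB092 library than in each GFP library. Its scaled values averaged 23.7 ± 12.8 in PtrMYB092 and 5.73 ± 5.28 in GFP libraries (SD, n = 3 each), and were 3.26, 3.98 and 10.03 times as high within replicate numbers. The log2 fold change was 2.05 ± 0.61 (SE), with a 95% interval of 0.67 to 3.43 and an adjusted p of 0.104 by limma, and it did not pass. With the replicate block the SE was 0.26, the interval 1.46 to 2.63 and the adjusted p by limma 0.000608. Without GFP replicate 1 the log2 fold change was 2.69 with an adjusted p of 0.0243 by limma, and over all alternatives that p lay between 0.000608 and 0.322. In the same scaled values PtrHSFB3-1 libraries were 3.93, 4.11 and 14.4 times as high as the GFP libraries. The ratio was highest in replicate 3 for both TFs, and they share that GFP library, at 2.

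Potri.004G006800, before the run, went the other way. It is one of the genes that passed the filter only with the PtrHSFB3-1 libraries. It was at 3, 3 and 7 in PtrMYB092 libraries and 15, 9 and 19 in GFP libraries, and at 20, 15 and 24 in PtrHSFB3-1 libraries. PtrMYB092 lay below GFP in all 3 replicate numbers, at 0.229, 0.354 and 0.411 times the scaled GFP value. The log2 fold change was -1.41 ± 0.36 (SE), with a 95% interval of -2.23 to -0.60 and an adjusted p of 0.0583 by limma, and it did not pass. With the replicate block the interval was -1.80 to -1.02 and the adjusted p by limma 0.000512. It also passed without GFP replicate 2, at -1.68 with an adjusted p of 0.0424 by limma, without PtrMYB092 replicate 3, at -1.76 with 0.0402, and with scaling to column totals, at -1.50 with 0.0304. Over all alternatives that p lay between 0.000512 and 0.242. Since the gene entered the fit only through the PtrHSFB3-1 libraries, where it is highest, nothing is read from its passing or not passing.

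The 3 genes of the third set were not called for PtrMYB092. Their log2 fold changes were -0.49 for Potri.004G008000, -0.69 for Potri.004G009100 and -0.53 for Potri.004G009400. On scaled values PtrMYB092 lay below GFP in all 3 replicate numbers for Potri.004G008000 and Potri.004G009400, while for Potri.004G009100 it was 1.02 times the GFP value in replicate 1. The 95% intervals reached from -1.90 to 0.92, from -2.02 to 0.63 and from -1.78 to 0.73. With the replicate block they reached from -0.918 to -0.061, from -1.223 to -0.166 and from -0.935 to -0.116, all below 0. The adjusted p by limma with the block was 0.102, 0.0669 and 0.0726, and none passed. Potri.004G009100 and Potri.004G009400 entered the fit only through the PtrHSFB3-1 libraries, where they are high, and nothing is read from their not passing. The 4 genes of the second set had log2 fold changes of -0.46 to -0.27, on values of 0 to 3, and these 4 also entered only that way. The 5 genes of the first set were at 0 in both groups and give no comparison. Without Potri.004G009600, the scaled sum of the run was 35.2, 4.8 and 14.2 in PtrMYB092 libraries and 38.8, 8.2 and 31.8 in GFP libraries, or 0.906, 0.590 and 0.446 times as high within replicate numbers.

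**Figure D5:**
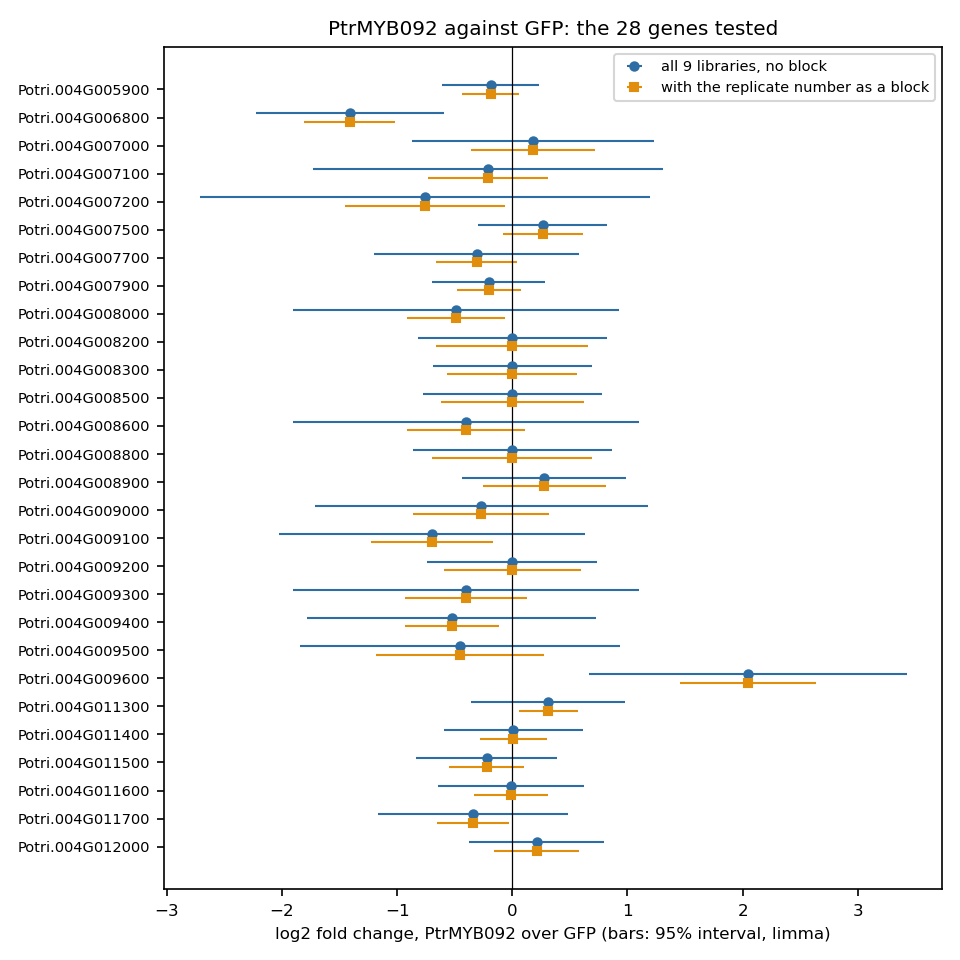
The log2 fold change of PtrMYB092 over GFP (x axis) for each of the 28 genes tested (y axis), from the limma fit over all 9 libraries without a block (circles) and with the replicate number as a block (squares); bars are 95% intervals. Without the block, the intervals of only Potri.004G009600 (0.67 to 3.43) and Potri.004G006800 (-2.23 to -0.60) leave out 0, and neither passed the adjusted threshold. With the block, those of Potri.004G007200, Potri.004G008000, Potri.004G009100, Potri.004G009400, Potri.004G011300 and Potri.004G011700 leave out 0 as well. Of all these genes, only Potri.004G009600 and Potri.004G006800 then passed the adjusted threshold. The fitted intervals of the 5 genes at 0 in both groups come from the spread of other libraries and genes.

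PtrMYB092 also raised 4 genes too low for the filter, all before the run. Potri.004G005200 was at 1, 2 and 2 in PtrMYB092 libraries and at 0 in all PtrHSFB3-1 and GFP libraries. Potri.004G005300 was at 4, 6 and 5 in PtrMYB092 libraries, 0 in all PtrHSFB3-1 libraries and 1, 0 and 1 in GFP libraries. Potri.004G005400 was at 3, 2 and 2 in PtrMYB092 libraries and at 0 in all PtrHSFB3-1 and GFP libraries. These 3 neighbours near the start of the range were thus seen almost only with PtrMYB092, at values of at most 6. In a limma fit with no filter on low values their adjusted p was 0.00563, 0.00533 and 0.00131, and they were called higher, where that fit called 3.00% of 27542 genes higher and 0.207% lower. Low values in this table scatter less than reads would, so these p-values measure the spread of the deposited values and not of reads. The fourth, Potri.004G007600, was at 2, 7 and 8 in PtrMYB092 libraries and 1, 2 and 2 in GFP libraries, and its groups touch at 2 before scaling. That fit did not call it, with an adjusted p of 0.192 by limma. With the replicate block added, a fit chosen after seeing the data, limma called all 4 genes higher, at adjusted p-values of 0.00736, 0.00614, 0.00223 and 0.0148 in the order given, where that fit called 4.18% of all genes higher and 1.63% lower.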

How the data were processed

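RNA-seq of 9 libraries was analysed, with 3 each for PtrHSFB3-1, PtrMYB092 and GFP. The authors mapped reads to the P. trichocarpa genome v3.0 with Bowtie 2 (version 2.1.0). TopHat is named in the processing notes of the submitters, and no source used here says which tool made the counts. The deposited values are labelled as raw counts but were treated as a score on a scale not given: among genes whose values in a pair of libraries sum to 2, 81.9% to 97.5% were equal over the 36 pairs, where random draws give at most 50%. No counting interval is therefore given.

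Values were scaled by a trimmed mean of log ratios without weights (30% of ratios and 5% of levels trimmed). Genes at 10 or more in at least 3 libraries, at the median column total of 454442, were tested as log2(value + 1) with limma 3.58.1 in R 4.3.3, over all 9 libraries with 6 residual degrees of freedom. Benjamini-Hochberg adjustment ran over all 7653 genes tested. The fit was tested on simulated data drawn with independent noise, and so without the pairing of libraries described below.

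Deviations from the group mean correlated at 0.516 to 0.863 in the 9 pairs of libraries with the same replicate number and at -0.706 to 0.267 in the 18 others, so the numbers pair the libraries. What a number stands for is not stated. The spread behind each p-value is that between these libraries, which may be technical in part.

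Members, lists and tests were chosen with earlier results of these data known. All raised members, those called for PtrMYB092 and those at the ends of the run were named. Since 0 of 41335 IDs matched the reference table, promoters and proteins were not analysed here. Alternatives covered scaling, filter, added constant, samples in the fit, block, thresholds, the definition of the run and each library left out.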

Additional observations from a re-analysis of the deposited data

How the results depend on the processing

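The run kept both its ends, Potri.004G008000 and Potri.004G009600, under every alternative tried except when no gap was allowed, which leaves 12 IDs from Potri.004G008500. It held 15 raised genes with scaling to column totals, 14 with 5 added before the logarithm, 14 at a fold of 4, and 14 when each PtrHSFB3-1 library had to pass the GFP library of its own number, a rule chosen after seeing the data. In the whole range, the members raised by PtrHSFB3-1 ran from 15, at a fold of 4, to 22, without PtrHSFB3-1 replicate 1. No difference of PtrHSFB3-1 from GFP changed its sign among the 20 raised genes. Of the other members 11, all at 0.477 or less in size, changed sign under column totals or with a library left out. For PtrMYB092, the members called higher were 3 with no filter, 1 with the replicate block and 5 with both, a fit chosen after seeing the data, and those called lower were 1 with scaling to column totals (Potri.004G006800, adjusted p 0.0304 by limma), 1 with the replicate block and 1 with the block and no filter. Over all genes, 827 were called higher and 57 lower with no filter, 1150 higher and 449 lower with no filter and the block, 45 lower with column totals, 18 lower with 6 libraries in the fit, 595 lower with the replicate block, 17 lower at a fold under 0.5 and 3 lower at an adjusted p under 0.01. Without PtrMYB092 replicates 2 and 3, which leaves 1 library assumed to vary like the others, 1 was called higher and 0 lower. By the rule for raised genes, PtrMYB092 raised 1 member and lowered 0 with 5 added before the logarithm, and likewise raised 1 and lowered 0 at a fold of 4. Leaving out 1 library at a time gave 0 to 1 members called higher (Potri.004G009600 without GFP replicate 1, adjusted p 0.0243 by limma), 0 to 1 called lower (Potri.004G006800 without GFP replicate 2 or PtrMYB092 replicate 3, adjusted p 0.0424 and 0.0402 by limma) and 1 to 3 lowered by the rule (without GFP replicate 2, Potri.004G008000 and Potri.004G009400 join). Over all genes it gave 137 to 371 called higher and 3 to 46 lower. The cause of these changes was not tested. Leaving out a PtrHSFB3-1 library cut the members tested to 15 or 16, since 12 genes of the run pass the filter only through these libraries.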
